A study of Rattus norvegicus with 24 samples.

Results

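The comparison described here was that of PCB 52 with sham exposure in the even-numbered animals, which were chosen by their animal number alone. They were 12 of the 24 Sprague-Dawley rats of the study, 6 sham animals (numbers 2, 4, 6, 8, 10 and 12) and 6 exposed animals (numbers 14, 16, 18, 20, 22 and 24). The labels give each library an animal number of its own, so replicates were separate animals of an outbred stock, and no pooling is stated. All 12 were labelled female. They arrived at 28 days of age, were acclimated for 8 days and were first exposed at 42 days of age. The exposed group inhaled PCB 52 for 4 hours a day over 28 days in a nose-only apparatus with an airflow of 12 L/min. What the sham animals breathed was not described in the sources used here, nor was the dose that reached the animals or the hour at which livers were taken. Food was freely available, and no fast before sampling is stated. The other 12 animals, odd-numbered and labelled male, had a count table of their own; they were used to test whether the response differed, their own folds are given beside some genes, and 1 alternative fit holds all 24 animals. The question was which liver genes differed after repeated inhalation of this compound.

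PCB 52 is an ortho-chlorinated polychlorinated biphenyl, a class of persistent industrial chemicals, and one of the more volatile members of the class that occur in air. Ortho-chlorinated members are known mainly as ligands or activators of the nuclear receptors CAR and PXR, which raise cytochromes P450 of the Cyp2b and Cyp3a families, transporters and conjugating enzymes in liver. Planar members act through the aryl hydrocarbon receptor AhR, with Cyp1a1 as its most sensitive target. The liver also switches between storing fuel after a meal, when insulin favours glycolysis and fatty acid synthesis, and releasing glucose during a fast, when glucagon (through cyclic AMP) and glucocorticoids favour gluconeogenesis.

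The 12 libraries held between 7229803 and 9185511 gene counts, and between 12194 and 12434 genes had at least 1 count. Levels are given as CPM, counts scaled to a common library total with edgeR's TMM factors, and a single count was worth 0.105 to 0.138 CPM. The labels' sex and tissue matched the data: Cyp2c12, the female-specific P450 of rat liver, lay between 6299 and 10872 CPM, the Y-linked Ddx3y and Eif2s3y had 0 counts in each of the 12 libraries, and the male P450 Cyp2c11 reached at most 9.75 CPM. The summed level of 10 hepatocyte markers was 150033 to 209766 CPM in sham animals and 155712 to 201625 CPM in exposed animals. Of the 10, 7 had a log2 fold (exposed over sham) below 0, with a median of −0.12. By the edgeR test described below, 3 were lower at an unadjusted p under 0.05 (Apoa1, Tat and Hnf4a) and 0 higher. The libraries also spread within groups, and the leading principal component of these 12 held 16.7% of their within-group variance. A library axis was scored across the tables: its gene weights here came from the leading within-group component of the odd-numbered animals. Exposed animals 14 and 16 scored 13.3 and 15.3 on it, sham animal 12 scored 7.88, exposed animal 24 scored 5.41, and the remaining libraries lay between −4.03 and 1.86. The group means differed by 5.15 (exact permutation test over the 12 libraries, two-sided p = 0.19). High scores fell on neighbouring animal numbers. Of the odd-numbered animals, scored with the even-numbered animals' weights, numbers 11, 13, 15 and 23 had 9.10, 11.4, 10.4 and 6.99. The remaining odd-numbered animals lay between −4.99 and 1.68. Sham animals had the lower numbers in each table, so exposure and animal order cannot be told apart.

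By edgeR's quasi-likelihood test 0 of 10251 genes tested (0%) passed a Benjamini-Hochberg adjusted p of 0.05, and the smallest adjusted p was 0.172. At an unadjusted p under 0.05 were 476 genes that were higher (4.64% of those tested) and 545 that were lower (5.32%). The ranges of the 6 exposed and 6 sham animals did not overlap for 13 higher genes (0.127%) and 26 lower genes (0.254%). The median log2 fold over all genes was 0.0032, and 50.7% were positive. DESeq2, run on the same 12 libraries, gave an adjusted p to 6610 genes and called 7 higher (0.106%) and 20 lower (0.303%). Each of those 27 genes also had an edgeR p under 0.05 before adjustment, which was likely beforehand because both tools used the same counts. Since no gene passed the main test, the values below are given as measured levels and fitted log2 folds (exposed over sham) ± standard error, and DESeq2's adjusted p is named where that tool called the gene.

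Genes that turn glucose into fatty acids had mostly positive folds in the exposed animals. Of 21 genes tested from the list for this pathway, 20 had a log2 fold above 0 and 10 had an unadjusted p under 0.05, all of them higher, with a median log2 fold of 0.34 against 0.0032 for all genes tested. The exception was Srebf1, which encodes the insulin-responsive activator of the pathway (log2 fold −0.31 ± 0.16; named after its value was seen). Animal by animal, the list's median log2 difference from the sham mean ran from −0.40 to 0.19 in sham animals and from 0.19 to 0.48 in exposed animals, so that sham animal 2 (0.19) lay level with the lowest exposed animal, number 14.

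Acly, ATP citrate lyase, makes the cytosolic acetyl-CoA that the pathway starts from. Its level ran from 419 to 766 CPM in sham animals (median 575) and from 824 to 1067 CPM in exposed animals (median 928). All 6 exposed animals lay above every sham animal. The fitted log2 fold was 0.67 ± 0.13 (adjusted p = 0.172; DESeq2 adjusted p = 0.00224).

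The promoter of Acly is shown because this gene had the smallest p among the higher genes. It is the RefSeq sequence of the 250 bases before the annotated start on the build GRCr8, written 5′ to 3′ on the gene's strand, with the CCAAT box and 3 matches to the GC box letters GGGCGG (both strands searched) in capitals. Of 27457 RefSeq promoters of the same length, 34.3% held CCAAT and 32.4% held GGGCGG on either strand, so both are common letters.
Acly, chr10:85963632-85963881, minus strand: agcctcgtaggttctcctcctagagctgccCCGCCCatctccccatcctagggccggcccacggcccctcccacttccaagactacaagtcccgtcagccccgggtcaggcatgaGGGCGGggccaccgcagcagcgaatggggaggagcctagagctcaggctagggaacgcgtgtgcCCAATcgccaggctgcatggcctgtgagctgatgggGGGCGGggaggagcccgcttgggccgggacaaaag

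Fasn, fatty acid synthase, joins these units into palmitate. Fasn ran from 451 to 794 CPM in sham animals (median 649) and from 695 to 1314 CPM in exposed animals (median 946). Exposed animal 14 lay inside the sham range and the other exposed animals above it. The log2 fold was 0.61 ± 0.16 (adjusted p = 0.33), and DESeq2 called it at an adjusted p of 0.0487. Pklr, the liver pyruvate kinase that feeds the pathway, ran from 287 to 388 CPM in sham animals (median 365) and from 343 to 550.1 CPM in exposed animals (median 483). Here exposed animal 16 lay inside the sham range, and the log2 fold was 0.44 ± 0.12 (adjusted p = 0.33). Acacb, the acetyl-CoA carboxylase at the mitochondrial surface, had 0.56 ± 0.16 with overlapping groups (adjusted p = 0.341).

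The members with the largest folds varied most between animals, and they are named here after their values were seen. Pnpla3, a lipid droplet acylhydrolase controlled by insulin and carbohydrate, ran from 3.46 to 44.0 CPM in sham animals (median 26.6) and from 31.9 to 164 CPM in exposed animals (median 70.5). The lowest value was that of sham animal 4 and the highest that of exposed animal 24. Its log2 fold was 1.74 ± 0.56. Scd, stearoyl-CoA desaturase, was between 4750.0 and 5809 CPM in exposed animals 16, 20 and 24 and between 1951 and 2698 CPM in 14, 18 and 22, where the sham animals ended at 2433 CPM. The exposed animals thus split into a high and a low set for this gene, and its log2 fold was 1.06 ± 0.37. Elovl6, which elongates palmitate, had 0.91 ± 0.28 and Acaca, the cytosolic acetyl-CoA carboxylase, 0.54 ± 0.18.

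Me1, malic enzyme, which supplies NADPH for this synthesis, is among the 10 higher synthesis genes counted above and is also on the lists of Nrf2 targets and glutathione genes and of thyroid hormone genes. It had a log2 fold of 0.61 ± 0.19 (adjusted p = 0.391). Over the Nrf2 and glutathione list 14 of 21 genes were above 0, 3 of them at an unadjusted p under 0.05 (Me1 and Nqo1 among them), with a median of 0.10. Tkt, transketolase, had 0.24 ± 0.12 (adjusted p = 0.515), and Nfe2l2, which encodes Nrf2 itself, 0.18 ± 0.10 (adjusted p = 0.557). Cholesterol synthesis, the other major lipid pathway, had 17 of 25 genes above 0 but none at an unadjusted p under 0.05 (0 higher, 0 lower; median 0.09). Nsdhl and Fdft1, enzymes of that pathway, had 0.22 ± 0.11 and 0.22 ± 0.12, while Insig1, its sterol-regulated brake, had −0.41 ± 0.20 (adjusted p = 0.534).

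**Figure D1:**
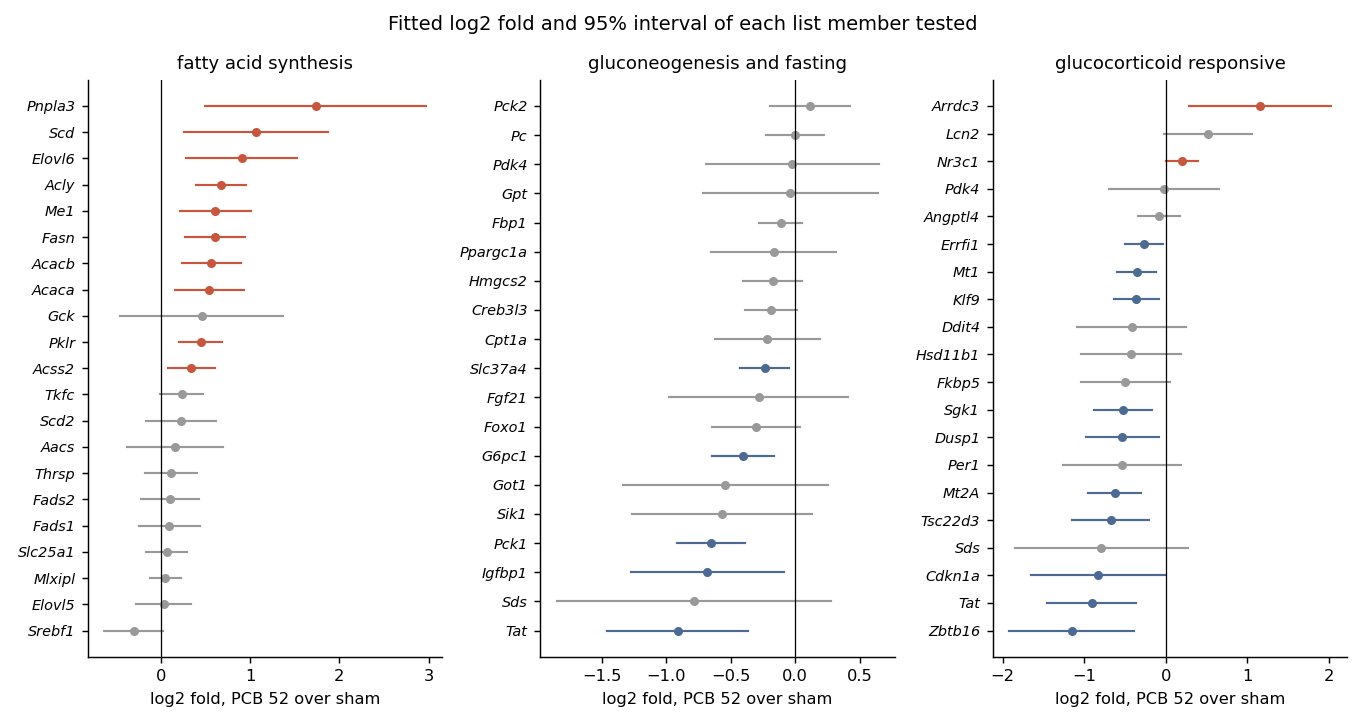
Fitted log2 fold of PCB 52 over sham (x axis) with its 95% interval for each gene tested on 3 lists, fatty acid synthesis, gluconeogenesis and fasting, and glucocorticoid responsive genes; red and blue mark an unadjusted p under 0.05 (higher and lower), grey the rest. Of 21 fatty acid synthesis genes 20 lie right of 0, and of 19 gluconeogenesis genes 18 lie at or left of 0.

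Genes of triglyceride storage and release had folds of either sign. Of 16 tested, 11 had a log2 fold below 0, 4 of them at an unadjusted p under 0.05, and 1 was higher at that p, Gpam, which adds the first acyl chain (0.48 ± 0.22; named after its value was seen); the median was −0.17. Pnpla2 encodes adipose triglyceride lipase, which opens the breakdown of stored fat. It ran from 198 to 271 CPM in sham animals (median 249) and from 119 to 218 CPM in exposed animals (median 164). Of the exposed animals only number 20 reached the sham range, the other exposed animals lying below every sham animal. Pnpla2's log2 fold was −0.54 ± 0.12 (adjusted p = 0.244; DESeq2 adjusted p = 0.0128). Lpin1, a phosphatidate phosphatase and coactivator that is induced by fasting, ran from 104 to 578 CPM in sham animals (median 182) and from 69.8 to 207 CPM in exposed animals (median 95.2). Its high values came from sham animals 4 and 12 (411 and 578 CPM), and its log2 fold was −1.26 ± 0.46 (adjusted p = 0.442), or −0.88 without sham animal 12. Plin2, a lipid droplet coat protein, had −0.42 ± 0.18, and Agpat3, an acyltransferase of phospholipid and triglyceride assembly, −0.34 ± 0.11.

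Genes of gluconeogenesis and the fasting state lay mostly below sham. Of 19 tested, 18 had a log2 fold below 0 and 5 an unadjusted p under 0.05, all of them lower, with a median of −0.24. The list's median in single animals ran from −0.24 to 0.16 in sham and from −0.58 to −0.06 in exposed animals. The groups overlapped: sham animal 2 stood at −0.24, while exposed animals 18 and 20 stood at −0.17 and −0.06.

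Pck1, the cytosolic phosphoenolpyruvate carboxykinase that commits carbon to glucose, ran from 3483 to 4685 CPM in sham animals (median 4198) and from 2132 to 3703 CPM in exposed animals (median 2446). Exposed animal 20 (3703 CPM) lay inside the sham range and the other exposed animals below it. Its fitted log2 fold was −0.66 ± 0.13 (adjusted p = 0.172; DESeq2 adjusted p = 9.86e-04). Tat, tyrosine aminotransferase, which supplies amino acid carbon and is a classical glucocorticoid and cyclic AMP target, ran from 980.2 to 1874 CPM in sham animals (median 1427) and from 466 to 1372 CPM in exposed animals (median 711). Exposed animal 20 was again the highest exposed animal, at 1372 CPM, and the others were below all sham animals. Its log2 fold was −0.91 ± 0.25 (adjusted p = 0.388).

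G6pc1, the catalytic subunit of glucose-6-phosphatase, which releases free glucose, had a log2 fold of −0.41 ± 0.12 (adjusted p = 0.341), and Slc37a4, the transporter that serves it, −0.24 ± 0.09 (adjusted p = 0.44). Igfbp1, a binding protein that insulin represses, ran from 239 to 525 CPM in sham animals (median 389) and from 112 to 355 CPM in exposed animals (median 249), with wide overlap and a log2 fold of −0.68 ± 0.27. On the side of sugar use, Ugp2, which makes the UDP-glucose for glycogen, had 0.42 ± 0.13 (adjusted p = 0.388), Pygl, the glycogen phosphorylase, 0.21 ± 0.09 (adjusted p = 0.482), and Ldha, lactate dehydrogenase A, −0.28 ± 0.12 (adjusted p = 0.478). The glycolysis and glycogen list as a whole was balanced, with 10 of 17 above 0 and a median of 0.01.

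Of the 15 lower genes with the smallest p, 3 hold the letters of the cAMP response element, which the fasting-activated factor CREB is known to bind, in the 250 bases before their start, and their promoters are shown for that reason. The letters searched were TTACGTCA on both strands and the palindrome TGACGTCA. Either form occurred in 2.50% of the 27457 RefSeq promoters (0.819% and 1.70% separately). Among the 15 lower genes 13 had a promoter in the table and 3 of these held the letters, Pck1, Nrbf2 and Slc25a25. Among the 15 higher genes 12 had a promoter and 0 held them. Other letters searched, TGCGCNC of the metal response element, were in 6 of those 13 lower and 3 of those 12 higher promoters. Over all RefSeq promoters their share was 12.7%. The shares cover all promoters, not only those of genes expressed in liver, and a role of CREB was not tested. The letters of the cAMP response element are in capitals. They begin 93 bases before the start of Pck1, 45 before that of Nrbf2 and 158 before that of Slc25a25.
Pck1, chr3:182348322-182348571, plus strand: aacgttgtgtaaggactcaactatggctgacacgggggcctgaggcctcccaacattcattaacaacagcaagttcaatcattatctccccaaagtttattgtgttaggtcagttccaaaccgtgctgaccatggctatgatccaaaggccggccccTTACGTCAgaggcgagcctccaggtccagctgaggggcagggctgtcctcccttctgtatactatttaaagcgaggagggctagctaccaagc
Nrbf2, chr20:21307150-21307399, plus strand: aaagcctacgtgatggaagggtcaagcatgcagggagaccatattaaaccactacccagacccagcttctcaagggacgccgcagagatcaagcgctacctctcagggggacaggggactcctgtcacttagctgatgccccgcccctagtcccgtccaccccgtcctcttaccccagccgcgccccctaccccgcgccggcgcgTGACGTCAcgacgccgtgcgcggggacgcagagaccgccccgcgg
Slc25a25, chr3:36116582-36116831, minus strand: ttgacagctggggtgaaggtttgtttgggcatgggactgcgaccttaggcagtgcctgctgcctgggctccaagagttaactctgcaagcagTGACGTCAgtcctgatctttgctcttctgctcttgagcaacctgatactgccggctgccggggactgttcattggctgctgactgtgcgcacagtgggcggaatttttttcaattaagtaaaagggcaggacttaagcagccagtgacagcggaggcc

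Slc25a25 encodes a mitochondrial carrier that exchanges ATP-Mg for phosphate. Its level ran from 276 to 572 CPM in sham animals (median 435) and from 166 to 346 CPM in exposed animals (median 188). Exposed animal 20 was again apart, at 346 CPM against at most 216 CPM in the other exposed animals, and it was the single exposed animal inside the sham range. In the fit its log2 fold was −0.98 ± 0.20 (adjusted p = 0.284; DESeq2 adjusted p = 9.86e-04). Nrbf2, a subunit of the lipid kinase complex that starts autophagy and a binder of nuclear receptors, ran from 40.2 to 56.0 CPM in sham animals (median 50.0) and from 24.4 to 36.7 CPM in exposed animals (median 32.7). Its groups did not overlap, and its log2 fold of −0.60 ± 0.11 had the smallest p of all genes (adjusted p = 0.172; DESeq2 adjusted p = 9.86e-04). The matches are descriptions of letters, and binding was not measured.

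**Figure D2:**
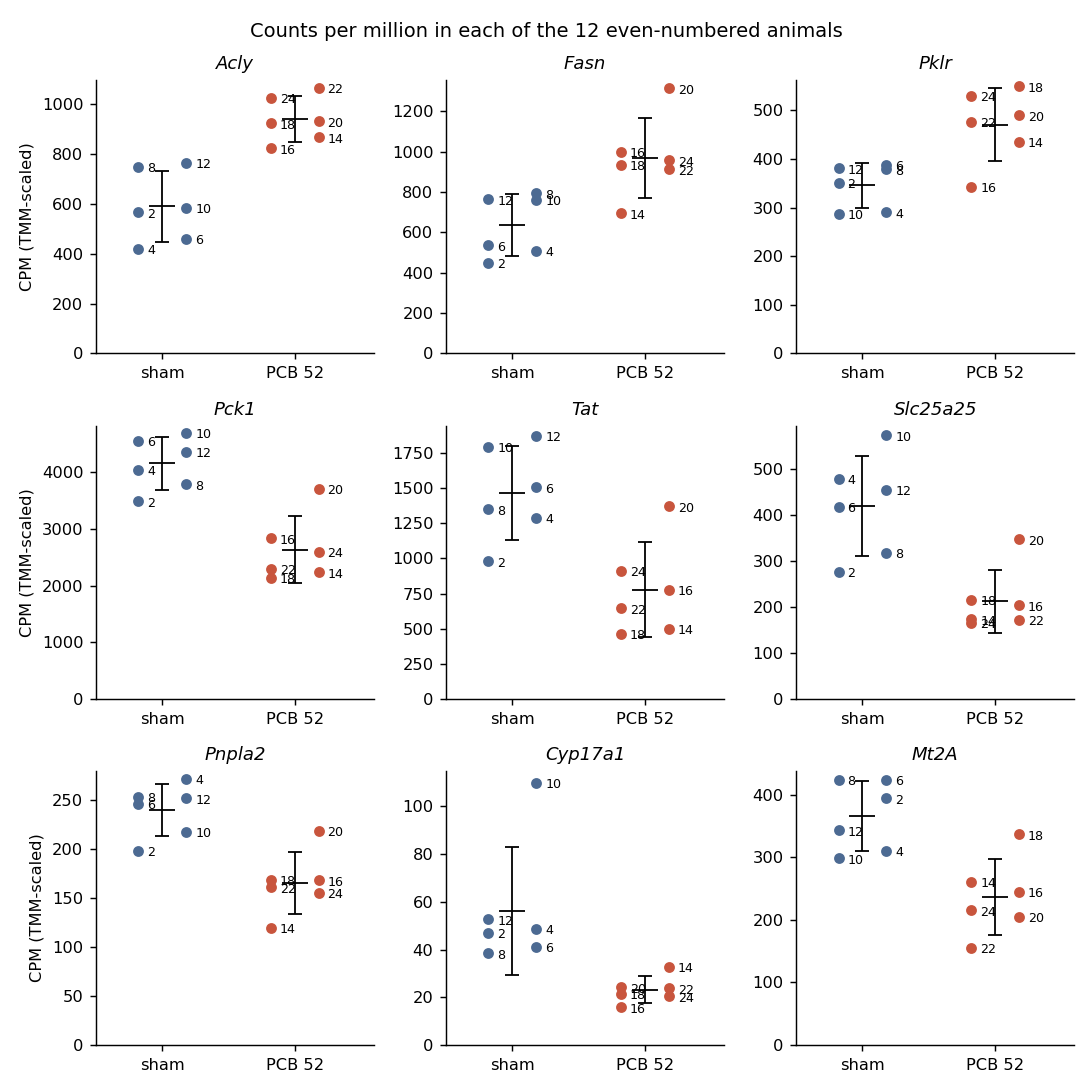
CPM (y axis, from 0) of 9 genes in each of the 12 animals, with animal numbers beside the points, blue for sham and red for PCB 52; black bars give the mean ± SD of 6 animals. The 6 exposed animals lie above all sham animals for Acly and below all of them for Cyp17a1, and exposed animal 20 is the highest exposed animal for Pck1, Tat, Slc25a25 and Pnpla2.

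Glucocorticoid responsive genes lay below sham more often than above. Of 20 tested, 17 had a log2 fold below 0, 10 of them at an unadjusted p under 0.05, and 2 were higher at that p; the median was −0.46. Tat, Sds and Pdk4 belong to this list and to the gluconeogenesis list, so the counts share those genes. Single-animal medians ran from −0.14 to 0.15 in sham and from −0.66 to −0.10 in exposed animals, with exposed animal 20 (−0.10) above sham animals 2 (−0.14) and 10 (−0.13). The higher members were Arrdc3, an arrestin-domain gene named after its value was seen (1.16 ± 0.39), and Nr3c1, which encodes the glucocorticoid receptor (0.20 ± 0.09).

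Mt2A encodes a metallothionein, a small metal-binding protein induced by zinc and by glucocorticoids. Its level ran from 298 to 424 CPM in sham animals (median 369) and from 155 to 337 CPM in exposed animals (median 230.0). Exposed animal 18 reached the sham range and the other exposed animals did not. The log2 fold was −0.63 ± 0.15 (adjusted p = 0.317; DESeq2 adjusted p = 0.0345). Its neighbour and close relative Mt1 had −0.35 ± 0.11 (adjusted p = 0.392), and reads could be shared between the paralogs. In the odd-numbered animals the folds of Mt2A and Mt1 were 0.22 ± 0.25 and 0.12 ± 0.17.

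The Mt2A promoter is shown because metallothioneins are known metal sensors as well as steroid targets. Its 250 bases hold 2 matches to TGCGCNC and 2 to TGCACNC, letters of the metal response element, in capitals and searched on both strands. Of the RefSeq promoters 12.7% and 10.2% hold at least 1 match to these letters.
Mt2A, chr19:10838709-10838958, minus strand: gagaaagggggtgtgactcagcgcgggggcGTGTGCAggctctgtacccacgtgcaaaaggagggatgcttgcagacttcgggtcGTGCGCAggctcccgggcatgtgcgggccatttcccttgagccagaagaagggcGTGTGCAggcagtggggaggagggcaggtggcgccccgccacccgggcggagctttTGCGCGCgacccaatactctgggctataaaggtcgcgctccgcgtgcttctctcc

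Other members of the list were of modest abundance. Sgk1, a kinase induced by glucocorticoids, had non-overlapping groups (23.5 to 51.3 CPM in sham and 17.2 to 23.3 CPM in exposed animals) and a log2 fold of −0.52 ± 0.17. Much of that came from sham animal 10, without which the fold was −0.30. Tsc22d3, the leucine zipper protein known as GILZ, had −0.68 ± 0.22 (adjusted p = 0.392), and Zbtb16, a zinc finger factor, −1.15 ± 0.35 (adjusted p = 0.392), both chosen after their values were seen. Klf9, a factor induced by glucocorticoids and thyroid hormone, had −0.36 ± 0.13 (adjusted p = 0.42).

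Immediate early genes, which are transcribed within minutes of a signal, had 19 of 21 folds below 0, 8 of them at an unadjusted p under 0.05 and 0 higher at that p, with a median of −0.34. Single-animal medians ran from −0.32 to 0.23 in sham and from −0.53 to −0.20 in exposed animals; sham animal 2 (−0.32) lay within the exposed range and the other sham animals above it. Gadd45b, a stress and growth-arrest gene that is also a CAR target, ran from 8.50 to 17.3 CPM in sham animals (median 13.3) and from 5.51 to 12.5 CPM in exposed animals (median 6.28), with exposed animals 16 and 20 inside the sham range and the other exposed animals below it. Its log2 fold was −0.71 ± 0.23 (adjusted p = 0.395). Klf4, a transcription factor of low abundance here, had −0.94 ± 0.30, Zfp36, which destabilises cytokine mRNA, −0.31 ± 0.11, and Nfil3, a basic leucine zipper factor, −0.33 ± 0.12. Dusp1, a MAP kinase phosphatase that is on the glucocorticoid list too, had −0.53 ± 0.21 (named after its value was seen).

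Hes1, a repressor downstream of Notch that also curbs lipid synthesis, ran from 14.1 to 18.4 CPM in sham animals (median 16.9969) and from 10.2 to 12.0 CPM in exposed animals (median 10.98). Its groups did not overlap, and its log2 fold was −0.58 ± 0.11 (adjusted p = 0.172; DESeq2 adjusted p = 0.00237). Ppp1r10, a nuclear regulator of protein phosphatase 1, had −0.54 ± 0.11 (DESeq2 adjusted p = 0.00405), with exposed animal 20 the single one inside the sham range. Among genes of the integrated stress response, Ddit3 and Sesn2, targets of ATF4, had −0.29 ± 0.12 and −0.47 ± 0.17, and Psat1, a serine synthesis enzyme of the same list, 0.52 ± 0.21. That list had 14 of 19 members below 0, 5 lower and 2 higher at an unadjusted p under 0.05 (median −0.14).

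**Figure D3:**
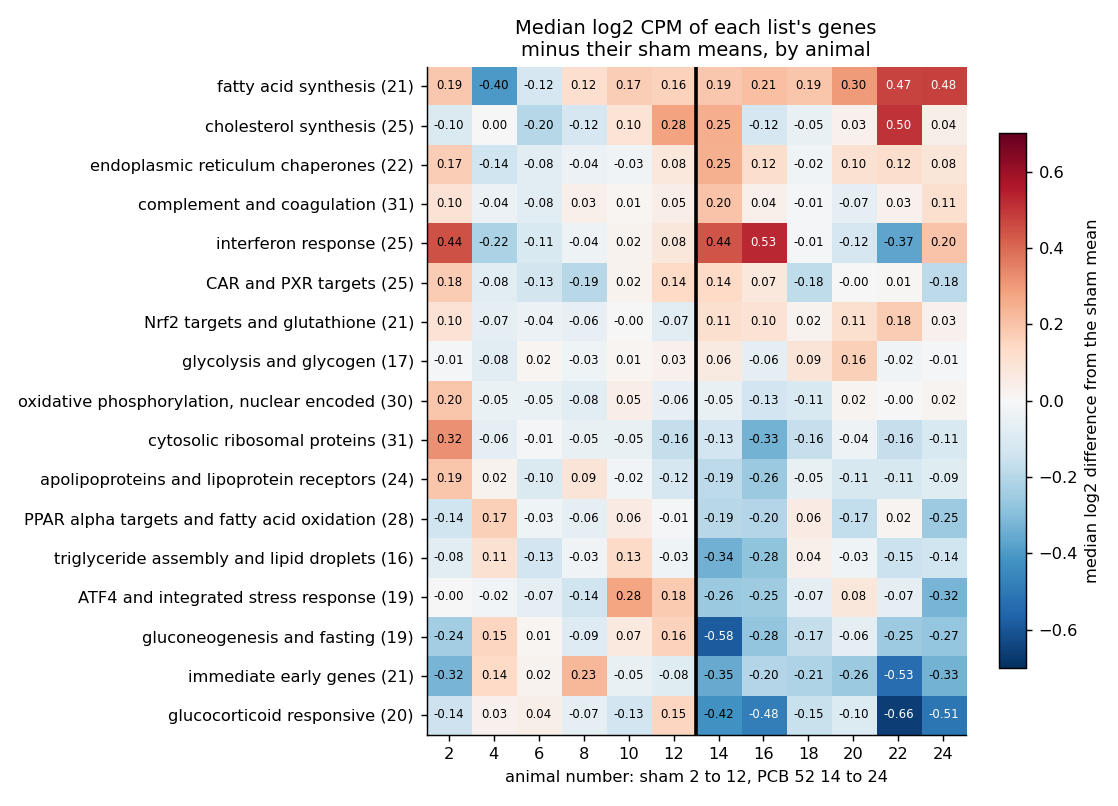
Median over each list's tested genes (number in brackets) of log2 CPM minus the gene's sham mean, for each of the 12 animals (columns, sham left of the line); red is above and blue below the sham mean. Fatty acid synthesis is between 0.19 and 0.48 in all 6 exposed animals, glucocorticoid responsive genes between −0.66 and −0.10, and the interferon response is high in animals 2, 14 and 16.

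Cyp17a1, which the steroid-producing glands use for androgen and cortisol synthesis and which liver expresses at a low level, had the lowest DESeq2 adjusted p of the comparison (1.62e-04). Its level ran from 38.4 to 110.0 CPM in sham animals (median 47.8) and from 15.8 to 32.8 CPM in exposed animals (median 22.6). The groups did not overlap, and sham animal 10, at 110.0 CPM, stood far above the next sham animal at 52.7 CPM. The log2 fold was −1.28 ± 0.26 by edgeR (adjusted p = 0.284). Without animal 10 it was −0.98, and the gene then passed edgeR's test (adjusted p = 0.0215), the only gene to do so in that setting. Akr1c13, an aldo-keto reductase of the family that handles steroids, had 0.52 ± 0.12 (DESeq2 adjusted p = 0.0487), with all exposed values but those of animal 18 above the sham range.

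Since no gene at all passed the test, the P450 genes that PCBs are known to induce are given as values, and whether they were induced was not settled. Cyp2b2, the classical CAR target, ran from 4.20 to 32.5 CPM in sham animals (median 13.1) and from 1.22 to 87.3 CPM in exposed animals (median 13.3). Exposed animal 14 alone was high, and the rest of the exposed group lay at or below 14.4 CPM. The log2 fold of 0.45 ± 0.93 had a 95% interval of −1.61 to 2.50 and changed sign without animal 14 (−0.86). Its near-identical paralog Cyp2b1 was below the filter, at most 5.75 CPM, also in animal 14, and reads cannot be assigned with certainty between the copies. Of the Cyp3a family, targets of PXR, Cyp3a23-3a1 had a 95% interval of −0.67 to 0.28, Cyp3a18 a log2 fold of −0.74 ± 0.24 (adjusted p = 0.395) and the low-abundance Cyp3a2 one of 0.64 ± 0.25 (adjusted p = 0.44). The AhR targets Cyp1a1 and Cyp1a2 had intervals of −0.93 to 0.62 and −0.37 to 0.04.

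Receptors and partners of these enzymes had folds of either sign, with 9 of 19 list members above 0 and a median of −0.04. At an unadjusted p under 0.05 were 1 higher (Nr3c1) and 2 lower (Nr1i2 and Hnf4a). Por, which passes electrons to the P450s, had a log2 fold of −0.45 ± 0.15 (adjusted p = 0.392) and Alas1, the first enzyme of heme synthesis, −0.39 ± 0.17 (adjusted p = 0.486); Alas1 was chosen after its values were seen. Nr1i2, which encodes PXR, ran from 250.2 to 347.3 CPM in sham animals (median 294) and from 211 to 274 CPM in exposed animals (median 222). Exposed animals 18 and 20 were inside the sham range, the others below it, and the log2 fold was −0.34 ± 0.10 (adjusted p = 0.388). Hnf4a, the nuclear receptor that maintains hepatocyte gene expression, ran from 465 to 549 CPM in sham animals (median 503) and from 384 to 455 CPM in exposed animals (median 437), without overlap. Its log2 fold was −0.24 ± 0.08 (adjusted p = 0.395). Nr1i3, which encodes CAR, had −0.48 ± 0.26 (adjusted p = 0.561).

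Conjugation and export genes had folds of either sign. Abcc2 encodes the canalicular pump MRP2, which exports glucuronides into bile. It ran from 899.6 to 1245 CPM in sham animals (median 1047) and from 1103 to 1755 CPM in exposed animals (median 1395). Exposed animal 20 lay inside the sham range and the other exposed animals above it, and the log2 fold was 0.41 ± 0.11 (DESeq2 adjusted p = 0.0487). Ugt1a6, a glucuronosyltransferase for planar phenols and an AhR target, ran from 8.19 to 12.1 CPM in sham animals (median 9.75) and from 12.0 to 15.7 CPM in exposed animals (median 13.7), with exposed animal 14 overlapping sham animal 6. Its log2 fold was 0.48 ± 0.12 (adjusted p = 0.318), against −0.09 ± 0.12 for Ugt1a1, which shares its last exons with Ugt1a6, so the split of reads between them is uncertain. Abcb1b, a P-glycoprotein gene, was low throughout and did not overlap, from 2.74 to 5.05 CPM in sham and from 0.477 to 2.38 CPM in exposed animals (log2 fold −1.42 ± 0.32, adjusted p = 0.284). Nqo1, the quinone reductase, ran from 19.1 to 24.7 CPM in sham animals (median 21.7) and from 22.02 to 41.8 CPM in exposed animals (median 25.4), with the highest value in animal 24 and a log2 fold of 0.37 ± 0.14. Over the list of CAR and PXR targets 12 of 25 genes were above 0, 2 higher and 5 lower at an unadjusted p under 0.05, and the median was −0.06.

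**Figure D4:**
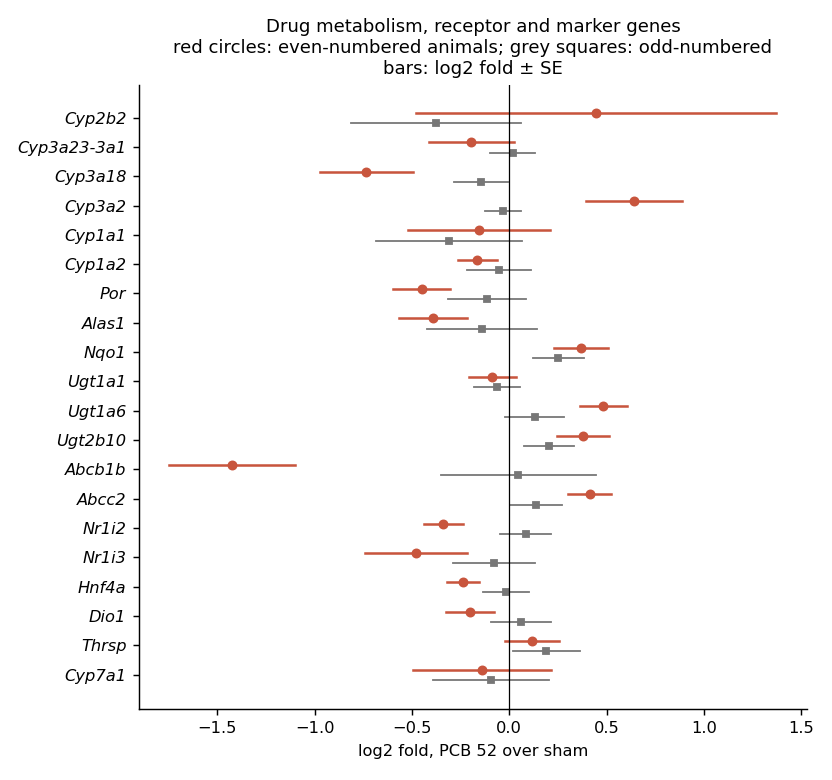
Fitted log2 fold ± SE (x axis) of PCB 52 over sham for 20 drug metabolism, receptor and marker genes in the even-numbered (red circles) and odd-numbered animals (grey squares). Abcb1b stands at −1.42 in the even-numbered and 0.05 in the odd-numbered animals, and Cyp2b2 has the widest error bar.

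Of 18 bile acid genes 12 were above 0, with 2 higher and 2 lower at an unadjusted p under 0.05 and a median of 0.05. Of 16 thyroid hormone genes 10 were above 0, with 1 higher (Me1) and 2 lower (Bcl3 and Klf9) and a median of 0.05. The intervals of Cyp7a1, Dio1 and Thrsp included 0. Cyp7a1, which sets the pace of bile acid synthesis, had a 95% interval of −0.92 to 0.64, Dio1, the liver deiodinase, one of −0.46 to 0.06, and Thrsp, a thyroid hormone responsive gene of lipogenesis, one of −0.17 to 0.41. The log2 folds were −0.14, −0.20 and 0.12. The bile acid genes at that p were Abcc2, described above, and these: Slco1b2, a basolateral transporter of bile acids and drugs, had 0.30 ± 0.10 (adjusted p = 0.41), Abcb4, the phospholipid flippase of the canalicular membrane, −0.31 ± 0.11 (adjusted p = 0.395), and Nr0b2, the bile acid induced repressor SHP, −0.64 ± 0.24 (adjusted p = 0.44).

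Apolipoprotein genes lay mostly below sham. Of 24 genes of lipoproteins and their receptors, 19 had a log2 fold below 0, 7 of them at an unadjusted p under 0.05 against 1 higher, with a median of −0.13. Apoa1, the main protein of high-density lipoprotein, ran from 507 to 1031 CPM in sham animals (median 737) and from 296 to 599 CPM in exposed animals (median 432). Exposed animal 14 lay inside the sham range and the other exposed animals below it, and the log2 fold was −0.74 ± 0.19 (adjusted p = 0.33; DESeq2 adjusted p = 0.0307). Apoa5, which promotes triglyceride clearance, had −0.34 ± 0.11, Apoc2, the activator of lipoprotein lipase, −0.39 ± 0.14, and Abca1, which loads cholesterol onto Apoa1, 0.24 ± 0.10 (the higher one).

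Iron genes included Hamp, which encodes hepcidin, the hormone that closes iron export. Hamp ran from 515 to 828 CPM in sham animals (median 680.1) and from 400.0 to 728 CPM in exposed animals (median 458). Exposed animal 20, at 728 CPM, was the only exposed animal inside the sham range. Hamp had a log2 fold of −0.48 ± 0.14 (adjusted p = 0.376), and in the odd-numbered animals, which share no sham animals with these, it was −0.48 ± 0.12 (adjusted p = 0.829). Id1 and Atoh8, which like Hamp are known targets of bone morphogenetic protein signalling in hepatocytes, had −0.56 ± 0.18 (adjusted p = 0.392) and −0.47 ± 0.12 (adjusted p = 0.317; DESeq2 adjusted p = 0.0487). Their odd-table values were −0.62 ± 0.21 and −0.27 ± 0.12. The 3 genes were set together after their values were seen. The iron handling list as a whole was balanced, with 9 of 20 above 0.

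Secretory and translation genes had medians that were smaller in size without animals 14 and 16, the exposed animals highest on the library axis. Chaperones of the endoplasmic reticulum had 17 of 22 folds above 0, 4 of them at an unadjusted p under 0.05, and a median of 0.10, which was 0.05 without animals 14 and 16. Hyou1, a chaperone of oxygen-starved and stressed cells, had 0.34 ± 0.11 (adjusted p = 0.392) and Hsp90b1, the HSP90 of this compartment, 0.23 ± 0.10 (adjusted p = 0.482). Ribosomal protein genes had 30 of 31 folds below 0, 7 at an unadjusted p under 0.05, and a median of −0.15, which was −0.10 without these animals and −0.09 with the axis score as a covariate. Rps19 and Rpl8 had −0.32 ± 0.11 and −0.30 ± 0.11. Sham animal 2 had the highest single-animal median of this list (0.32) and exposed animal 16 the lowest (−0.33). Exposed animals 14, 18 and 22 had −0.13, −0.16 and −0.16. The sign of the axis was set so that ribosomal protein genes had a negative mean weight, so low values of this list at high scores are partly built in. The complement and coagulation list had 4 genes higher and 0 lower at an unadjusted p under 0.05, among them Mbl2, a lectin that starts complement activation (0.31 ± 0.12); its median was 0.04, and 0.005 without animals 14 and 16.

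Genes of fatty acid oxidation under PPAR alpha had 22 of 28 folds below 0 and a median of −0.16. At an unadjusted p under 0.05 in the edgeR test, 3 were lower and 1 higher, where 5.32% of all genes tested were lower and 4.64% higher. Eci1, an isomerase of unsaturated fatty acid oxidation, had −0.47 ± 0.14 (adjusted p = 0.388). Decr2, Pxmp4 and Retsat, given next, are not on this list and were named by their p in these same libraries. Decr2, a peroxisomal reductase for double bonds, ran from 104 to 120.0 CPM in sham animals (median 108) and from 86.4 to 98.3 CPM in exposed animals (median 91.9). Its groups did not overlap (log2 fold −0.27 ± 0.08, DESeq2 adjusted p = 0.0487). Pxmp4, a peroxisomal membrane protein, also had non-overlapping groups, with 67.04 to 81.4 CPM in sham and 48.9 to 62.9 CPM in exposed animals, and a log2 fold of −0.41 ± 0.09 (DESeq2 adjusted p = 0.00253). Retsat, which saturates retinol and is a known PPAR target, had −0.46 ± 0.12 (DESeq2 adjusted p = 0.0487). Cyp4a3, a fatty acid omega-hydroxylase and a sensitive PPAR alpha target, had the opposite sign (0.54 ± 0.21), with its highest value in exposed animal 24.

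Further genes with the smallest p came from no list. Among the lower ones, B4galnt1, a ganglioside synthase, had a log2 fold of −0.45 ± 0.09 and Cstb, cystatin B, an inhibitor of lysosomal proteases, −0.39 ± 0.09, both without overlap. Kctd6, a cullin adaptor, had −0.53 ± 0.13, Ube2g2, a ubiquitin-conjugating enzyme of protein quality control, −0.45 ± 0.11, Hmgb3, a chromatin protein, −0.48 ± 0.12, Pes1, a ribosome assembly factor, −0.36 ± 0.09, and Tcim −0.71 ± 0.19. Among the higher ones, Entpd5, a nucleotidase that serves protein folding in the endoplasmic reticulum, had 0.39 ± 0.10, Cbln3 0.37 ± 0.09 and Hltf, a DNA repair helicase, 0.70 ± 0.17. DESeq2 called these 10 genes, at adjusted p from 0.00305 (B4galnt1) to 0.0487 (Hmgb3).

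The remaining higher genes of this set were not called by either tool. Tubgcp2, a component of the microtubule-nucleating gamma-tubulin complex, ran from 10.7 to 12.0 CPM in sham animals (median 10.9) and from 13.5 to 16.4 CPM in exposed animals (median 14.2), without overlap. Its log2 fold was 0.38 ± 0.10 (adjusted p = 0.33). Farsb, a subunit of phenylalanyl-tRNA synthetase, had 0.39 ± 0.10, Loxl4, a collagen crosslinking enzyme, 0.42 ± 0.11, and Ankrd46 0.37 ± 0.10. Afap1l2, an actin-associated adaptor, had 0.76 ± 0.18, Sorcs2, a sorting receptor of low abundance (median 0.969 CPM in sham and 2.35 CPM in exposed animals), 1.11 ± 0.29, and the zinc finger genes Zfp608 and Zfp322a 0.54 ± 0.13 and 0.62 ± 0.16. Of the 15 higher and 15 lower genes named by smallest p, 6 and 8 had non-overlapping groups. Over all genes tested the shares were 0.127% and 0.254%. The named genes were chosen by their p in the same libraries, so a larger share was likely beforehand.

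Markers of the other cells of liver were compared because bulk RNA mixes all of them, and fewer cells of a type cannot be told apart from less RNA per cell. Over 16 Kupffer cell and macrophage markers the summed level was 1156 to 1397 CPM in sham animals and 1135 to 1279.8 CPM in exposed animals, and 10 of 16 tested were below 0 (median −0.03). For 11 sinusoidal endothelial markers it was 515 to 756 CPM in sham animals and 614 to 741 CPM in exposed animals (median 0.07). Stellate cell and collagen markers summed to 363 to 793 CPM in sham animals and 484 to 661 CPM in exposed animals, with 12 of 17 above 0 and Tagln, a contractile protein, at 0.68 ± 0.22. Each of these ranges overlapped between the groups. Cholangiocyte markers summed to 127 to 142 CPM in sham animals and 115.2 to 138 CPM in exposed animals, erythroid markers to 52.4 to 216 CPM in sham animals and 21.6 to 209.7 CPM in exposed animals, and lymphocyte markers to 42.4 to 58.4 CPM in sham animals and 44.8 to 56.6 CPM in exposed animals.

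Adipocyte and muscle genes were examined as signs of neighbouring tissue. Adipocyte markers summed to 24.8 to 30.1 CPM in sham animals and 15.6 to 28.1 CPM in exposed animals, and 3 of 8 measured genes passed the filter; Cfd, an adipokine of the complement system, had −0.38 ± 0.15. Muscle genes summed to 0.119 to 1.10 CPM in sham animals and 0.316 to 0.835 CPM in exposed animals and neutrophil genes to 2.53 to 4.75 CPM in sham animals and 3.72 to 6.24 CPM in exposed animals. At 0 counts in all 12 libraries were 4 of 6 muscle genes (Acta1, Ckm, Myh4 and Myl1), 2 of 11 neutrophil genes (Camp and Ly6g6c), 2 of 8 adipocyte genes (Lep and Plin1) and Hba-a2 of the erythroid list. None of these lists had summed levels that separated the groups, and their part in the results above was not tested.

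Exposed animal 20 differed from the rest of its group in the direction of the sham animals for a set of genes. It was the only exposed animal inside the sham range for Pck1, Tat, Slc25a25, Lpin1, Pnpla2, Ppp1r10, Abcc2 and Hamp. Without it edgeR called 8 genes, all lower: Slc25a25 (adjusted p = 0.00721), Pck1 (0.00721), Pnpla2 (0.0473), Tat (0.0490), Nrbf2, Ppp1r10, Hamp and Pim3, a kinase of the Pim family (each 0.0490). The log2 folds without animal 20 were −1.17 for Slc25a25, −0.78 for Pck1 and −1.15 for Tat. Animal 20 was left out only as each library was in turn, and its label gives no ground to drop it.

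The leading folds were of similar size without animals 14 and 16, which stood highest on the library axis. Without them Acly had a log2 fold of 0.74, Fasn 0.70, Pck1 −0.63, Slc25a25 −0.90, Cyp17a1 −1.32 and Mt2A −0.68. All 30 genes named by smallest p kept their direction and an unadjusted p under 0.05, both without these animals and with the axis score as a covariate. They were chosen by their p in the same libraries, so this outcome was likely beforehand and is no independent check. Over all genes the edgeR count at an unadjusted p under 0.05 was 1021, against 625 without these animals and 608 with the covariate. The list medians were 0.37 for fatty acid synthesis, −0.21 for gluconeogenesis, −0.44 for glucocorticoid responsive genes and −0.35 for immediate early genes. Some other list medians changed sign. The interferon median was 0.07 with these animals and −0.11 without them, that of bile acid genes 0.05 and −0.03, and that of thyroid hormone genes 0.05 and −0.04. The median of triglyceride storage genes was −0.17 with these animals and −0.09 without them.

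The odd-numbered animals, labelled male and first exposed at 39 days of age, were compared through the difference of the responses (even minus odd) in 1 edgeR fit of all 24 libraries. By this test 0 of 10535 genes (0%) passed, 239 had an unadjusted p under 0.05, and the smallest adjusted p was 0.99997. DESeq2 called 0, with 297 at an unadjusted p under 0.05. No gene's response was therefore shown to be particular to the even-numbered animals. The 5 genes with the smallest unadjusted p in each direction are given as values. Ldhb, which encodes the heart-type subunit of lactate dehydrogenase, had a difference of 1.14 ± 0.32, Etv5, an ETS factor, 0.83 ± 0.23 and Homez 0.76 ± 0.22, with Tubgcp2 at 0.38 ± 0.12 and Zfp697 at 0.81 ± 0.26. On the other side Camlg had −0.58 ± 0.16, Aig1 −1.19 ± 0.35, C1h19orf47 −0.60 ± 0.18, Dstyk −0.54 ± 0.17 and Mcm7, a replication helicase subunit, −0.55 ± 0.17.

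Set side by side, the leading folds of the even-numbered animals were mostly smaller in the odd-numbered ones. Acly had 0.28 ± 0.30 there, Fasn 0.24 ± 0.36, Pck1 −0.25 ± 0.13, Tat −0.30 ± 0.23, Slc25a25 −0.68 ± 0.39 and Cyp17a1 −0.19 ± 0.21. The differences were 0.39 ± 0.33 for Acly, −0.41 ± 0.19 for Pck1, −1.10 ± 0.36 for Cyp17a1 and −0.85 ± 0.30 for Mt2A, none of which passed. The genes were chosen by their even-table values. Of the 15 higher genes, 11 of the 14 with an odd-table value were above 0 there too, and of the 15 lower genes 13 of 15 were below 0. Across the 10035 genes tested in both tables the log2 folds had a Pearson r of 0.380 and a Spearman rho of 0.428, and 67.4% shared their sign. Genes are not independent replicates, and animals 13 to 16 stood high on the library axis in both tables. Without these animals r was 0.193 and 58.3% shared their sign.

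List medians in the odd-numbered animals were 0.09 for fatty acid synthesis, −0.06 for gluconeogenesis, 0.02 for glucocorticoid responsive genes and −0.25 for immediate early genes. Of the 20 glucocorticoid responsive genes 4 had an unadjusted p under 0.05 in the edgeR test of the difference of the responses. Of the 21 immediate early genes 0 did, and of all 10251 genes tested in the even-numbered animals 226 did. None of these genes passed adjustment, so no difference between the tables was shown for either list.

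**Figure D5:**
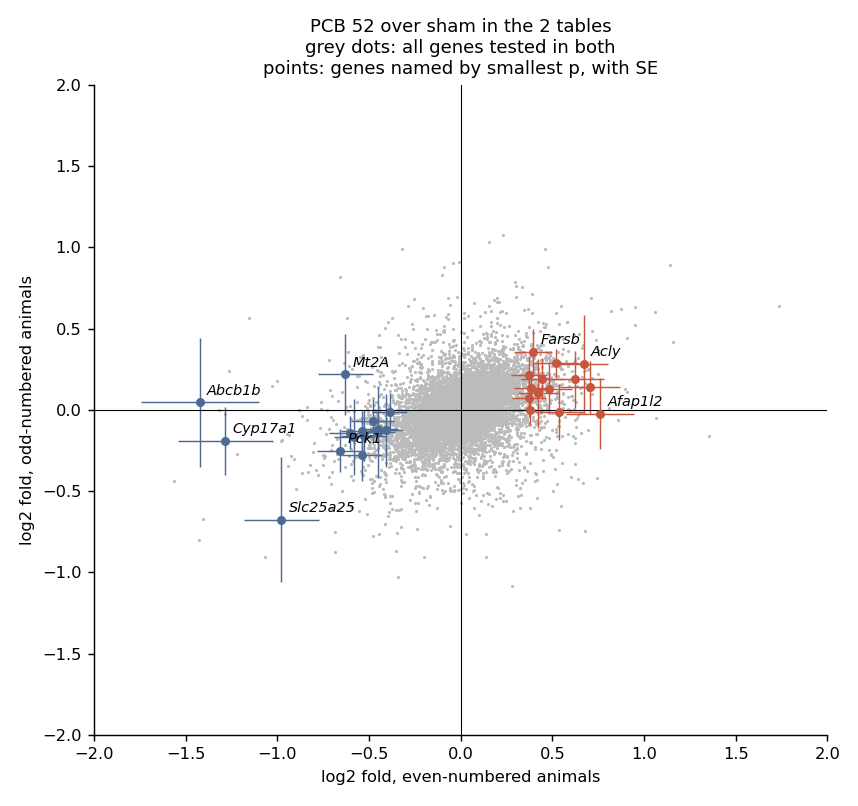
Log2 fold of PCB 52 over sham in the even-numbered (x axis) against the odd-numbered animals (y axis); grey dots are the 10035 genes tested in both tables, red and blue points the higher and lower genes named by smallest p, with SE. Most of the named genes lie nearer to 0 on the y axis than on the x axis, Slc25a25 lies low on both, and Abcb1b and Mt2A lie above 0 on the y axis. They were chosen on the x axis values.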

How the data were processed

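Liver RNA of 24 rats was sequenced, 1 library per animal number. The deposited values are raw gene counts per Entrez gene ID, made by the authors by alignment to rn6 with HISAT2 after FastQC, per the submitters' processing notes. Which program counted the reads, with which annotation and strand setting, is not given in the sources used here, so overlapping and antisense genes cannot be told apart, and the labels name poly(A) capture or rRNA removal without saying which.

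Symbols came from the RefSeq table of GRCr8, which matched 15230 of 15319 gene IDs; the 89 others held at most 2.30% of a library's counts. Library totals of 7229803 to 9185511 set the precision of low genes. No replicate pair differed by as little as sampling noise (lowest chi-square per degree of freedom 10.7).

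The 12 even-numbered libraries were fitted alone with edgeR 4.0.16 in R 4.3.3: TMM scaling (factors 0.941 to 1.04), filterByExpr (minimum count 10, minimum total 15), robust quasi-likelihood fit and test of exposed against sham, with Benjamini-Hochberg adjustment over 10251 genes and a threshold of 0.05. P-values set the difference between the groups against the spread between animals. The difference of the responses was tested in 1 fit of 4 groups. Single-animal list medians used log2 CPM. The fit was tested on simulated data.

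Named genes are the 15 higher and 15 lower with the smallest p, DESeq2 calls, 10 genes chosen for PCB biology, up to 4 members of each list with the smallest p, and 5 per direction for the difference; any further gene is marked in the text as picked with its values in view. Some genes that the rule selects are not reported here. The members and lists were chosen with earlier results of these data known.

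Alternatives were RLE scaling, no filter, a filter of 1 CPM in 6 libraries, no robust fit, DESeq2 1.42.0, limma-voom (limma 3.58.1) with quality weights, 1 surrogate variable (sva 3.50.0), the library axis score as a covariate, exposed animals 14 and 16 left out, 1 joint fit of all 24 libraries, fits that leave out each library, and an adjusted p of 0.10.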

Additional observations from a re-analysis of the deposited data

Results flagged for a closer look

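Within groups of 6 animals, 1 animal stood apart from its group for 20 of 330 gene and group pairs examined, its gap to the nearest other animal exceeding Dixon's 95% critical share of the group's range. Chance alone gives this in about 1 in 20 groups.

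In exposed animal 14, some drug and sex-dependent P450 genes stood apart and others did not. Cyp2b2 was at 87.3 CPM against 1.22 to 14.4 CPM in the other exposed animals, and its paralog Cyp2b1 at 5.75 CPM against 0.129 to 1.58 CPM. Reads cannot be assigned with certainty between these paralogs, so their values may not be separate observations. Cyp2c11, the male P450, was at 9.75 CPM against 0.119 to 1.58 CPM. Cyp3a18, Cyp3a23-3a1 and Cyp1a1 lay within the range of the other exposed animals. Cyp2c12 was at 10871.5 CPM against at most 10792.5 CPM, and it did not stand apart. Rgn, regucalcin, a calcium-binding protein of hepatocytes, was at 1234 CPM against 558 to 637.5 CPM, and Kctd6 was low, at 9.38 CPM against 13.6 to 16.1 CPM. For Rgn, sham animal 2 was also apart, at 705 CPM against 486 to 567 CPM in the other sham animals.

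Exposed animal 20 stood apart for 5 genes. Slc25a25 was at 346 CPM against 166 to 216 CPM in the other exposed animals, Lpin1 at 207 CPM against 69.8 to 103 CPM, and Hamp, hepcidin, at 728 CPM against 400.0 to 471 CPM. Ankrd46 was low at 50.2 CPM against 61.3 to 63.7 CPM, and Camlg, a calcium-signal and membrane-insertion protein, was low at 6.22 CPM against 8.13 to 9.18 CPM.

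Sham animal 10 had the highest Cyp17a1, 110.0 CPM against 38.4 to 52.7 CPM in the other sham animals, and the highest Sgk1, 51.3 CPM against 23.5 to 27.1 CPM. Akr1b7, an aldose reductase relative that is abundant in female rat liver, was low there, at 468 CPM against 740 to 887 CPM. Sham animal 12 was high for Tcim (105 CPM against 52.8 to 60.7 CPM), Ugp2 (356 CPM against 216 to 259 CPM) and Gstp1, a glutathione transferase (29.1 CPM against 13.7 to 19.1 CPM).

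Sham animal 4 was high for Zbtb16, at 39.8 CPM against 11.1 to 18.8 CPM. Exposed animal 22 was high for Entpd5, at 108.7 CPM against 89.1 to 94.96 CPM, and exposed animal 24 for Cyp4a3, at 17.6 CPM against 7.71 to 10.8 CPM.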

How the results depend on the processing

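The count of genes past an adjusted p of 0.05 was 0 by edgeR and stayed 0 under RLE scaling, no filter, the 1 CPM filter, no robust fit, limma-voom, 1 surrogate variable, the axis covariate, the fit without animals 14 and 16, and at an adjusted p of 0.10. It was 27 by DESeq2, 1 with all 24 libraries in 1 fit (Nrbf2), and 0 to 8 with each library left out. The 8 came without exposed animal 20, and 1 came without sham animal 10 (Cyp17a1).

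The count at an unadjusted p under 0.05 was 1021. It was 491 with 1 surrogate variable, 608 with the axis covariate and 625 without animals 14 and 16; the cause was not tested. With single libraries left out it ran from 708 to 1343. The count for the difference of the responses was 0 in every setting run.

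Of 3542 pairs of a named gene and a setting, 3533 kept their direction. Most of these genes were chosen by a small p in the same libraries, and many settings only leave out 1 library. Kept directions were therefore likely beforehand. Cyp2b2 (0.45) was −0.19 by limma-voom, −0.28 with the axis covariate and −0.59 without animals 14 and 16, and ran from −0.86 to 0.78 with libraries left out. Cyp1a1 (−0.15) was 0.083 with 1 surrogate variable, 0.044 with the covariate and 0.12 without animals 14 and 16, and ran from −0.53 to 0.012. Ugt1a1 (−0.09) ran from −0.15 to 0.0056. List medians moved by more than the spread between exposed animals in 14 of 858 pairs of list and setting. Chosen after seeing the data, the correlation of the log2 folds of both tables (0.380) was 0.193 without animals 13 to 16 and 0.217 with the axis covariate. No paired analysis was possible because each animal has a number of its own and the groups share none. Genes of a few counts, such as Cyp2b1 and Cyp2c11, were left out by the low-count filter of the reported fit.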

Other observations

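Several gene groups that belong to no comparison above are given as values, with 0 genes past edgeR's adjusted threshold in each. Circadian clock genes had 7 of 16 folds above 0, with 2 higher and 2 lower at an unadjusted p under 0.05: Per3 and Nr1d2, repressors within the clock loop, had log2 folds of 0.30 ± 0.13 and 0.23 ± 0.11, and Usp2, a deubiquitinase with a strong daily rhythm, −0.55 ± 0.17. Cell cycle genes were scarce, with a summed level of 95.1 to 159 CPM in sham animals and 114 to 151 CPM in exposed animals. Of 16 tested, 12 had a fold above 0, with 2 higher and 2 lower at an unadjusted p under 0.05, and the median of 0.25 was 0.05 without animals 14 and 16. Among them Mcm5, a replication helicase subunit, had 0.64 ± 0.29, Birc5, the mitotic protein survivin, 0.75, Mcm7, another subunit of the same ring, −0.42 ± 0.13, and Cdkn1a, the p21 inhibitor of the cycle, −0.83 ± 0.39, so that Mcm5 and Mcm7, partners in 1 complex, had opposite signs. Female-predominant genes of rat liver had 12 of 15 folds above 0 with a median of 0.19, and 0.07 without animals 14 and 16; Cyp2c12 had 0.31 ± 0.13.

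Conjugation genes had 3 higher and 0 lower at an unadjusted p under 0.05 of 17 tested: Ugt1a6, Ugt2b10, a glucuronosyltransferase, at 0.38 ± 0.13, and Papss2, which makes the sulfate donor, at 0.22 ± 0.09. Ugdh, which makes the glucuronic acid donor, had 0.23 ± 0.11. Nuclear-encoded oxidative phosphorylation genes had 25 of 30 folds below 0 with a small median of −0.05. Heat shock genes had 2 lower of 18, Hspe1, the mitochondrial co-chaperonin, at −0.31 ± 0.11 and Dnajb1, an HSP40, at −0.25 ± 0.11. The single-animal medians of the interferon response list were 0.44 in sham animal 2, 0.44 in exposed animal 14 and 0.53 in exposed animal 16, against −0.37 to 0.20 in the remaining animals.

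Sult2a2, a hydroxysteroid sulfotransferase of female rat liver, was chosen after its values were seen. It was at 8.43 CPM in sham animal 2 and between 536 and 1723 CPM in the other 11 libraries. Sult2 genes are close copies, and their counts are uncertain for that reason.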
